A study of Mus musculus with 8 samples.

Results

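The tumour necrosis factor (TNF) superfamily was read in mouse liver RNA as 48 of the 30266 genes of the deposited table: 16 ligands, 25 receptors, the 6 TRAF adaptors Traf1 to Traf6 and the antisense RNA Tnfsf13os. Members were taken by gene symbol: every symbol of Tnfsf or Tnfrsf followed by a number, the TRAFs, and Tnf, Lta, Ltb, Ltbr, Fas, Fasl, Cd40, Cd40lg, Cd27 and Eda2r. Cd70 was sought too, but the deposited table held no gene of that symbol. Ligands of the superfamily are mostly trimers at the cell surface that can be shed. Their receptors either carry a death domain, which can start apoptosis, or bind TRAF proteins, which pass the signal to NF-kappaB and JNK, and a few receptors are decoys that bind ligand without signalling. In liver, TNF, lymphotoxin and the cytokine TWEAK (Tnfsf12) are known for their parts in inflammation, hepatocyte death, regeneration and the ductular reaction.

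Libraries came from whole liver of 8-week-old male mice labelled Mdr2-/-, collected 4 h after either recombinant FGF21 (rFGF21) at 1.0 mg/kg (4 libraries) or the vehicle PBS (4 libraries). Both groups carry the Mdr2-/- genotype, so no wild-type liver enters the comparison. Mdr2, now named Abcb4, moves phospholipid into bile, and its loss in mice is used as a model of cholestatic, fibrosing liver disease. The comparison asks which transcripts differ shortly after FGF21 in this cholestatic liver. Whether each library is its own animal is not said in the labels. The p-values therefore reflect only how far these libraries spread, which may be technical.

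The libraries held 62756328 to 73313449 reads, and no pair differed by as little as sampling noise (chi-square per degree of freedom at least 47.1). Libraries are named by their column numbers, which are not the sample numbers of the labels. PBS library 4 lay farthest from the others of its group, at 65 on the first principal component, where the other PBS libraries lay between 9.1 and 31.4. The protocol text names retina, while the tissue labels say liver. Albumin (Alb) stood at 45600 to 58000 CPM (counts scaled to the effective library size) in rFGF21 and 42600 to 63400 CPM in PBS libraries, while Crx and Rcvrn, which mark photoreceptors, gave 0 reads in each of the 8 libraries (a count of 0 allows up to 3 reads). Abcb4 was read at 372 to 441 CPM in rFGF21 and 337 to 424 CPM in PBS libraries. The labels do not say which part of the gene is disrupted, so these whole-gene counts cannot check the genotype.

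Of the 48 members, 40 had enough reads to be tested. A pair of them rose after rFGF21, the TWEAK receptor gene Tnfrsf12a and the lymphotoxin-beta gene Ltb, and 0 fell (quasi-likelihood test of edgeR, p under 0.05 after Benjamini-Hochberg adjustment over 18315 genes). That is 5% of the tested members, beside 2.82% of all genes tested, of which 1.15% rose and 1.67% fell. The members were split evenly by sign, with 20 positive and 20 negative log2 fold changes, and their median was 0.05, against 0 for all genes tested. These values move with the filter and the scaling: the members' median was 0.2, against 0.01 for all genes, at a mean CPM of at least 1, and 0.3, against 0.17, with limma on TPM. By role, the median was 0.13 over 10 tested ligands, -0.03 over 23 receptors and 0.27 over the 6 TRAFs. At an unadjusted p under 0.05, 8 members were higher and 3 lower, together 27.5% of those tested, beside 18.8% of all genes. DESeq2 called 7 members, 5 higher and 2 lower, where it called 8.35% of all genes, 4% higher and 4.35% lower. Limma on RPKM (counts per kilobase of exon, scaled to library size) called Tnfrsf12a and Ltb too and 0 lower, with 1.9% of all genes called, 1.04% higher and 0.858% lower.

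The 4 rFGF21 libraries lay wholly above the 4 PBS libraries in 5 members (Tnfrsf12a, Ltb, Tnfrsf11a, Traf1 and Traf5) and wholly below them in 2 (Traf4 and Ltbr). These 7 make 17.5% of the tested members, beside 12.3% of all genes tested, of which 5.9% lay wholly above and 6.39% wholly below. In RPKM there were also 7 such members, 6 above and 1 below, beside 13% of all genes.

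**Figure D1:**
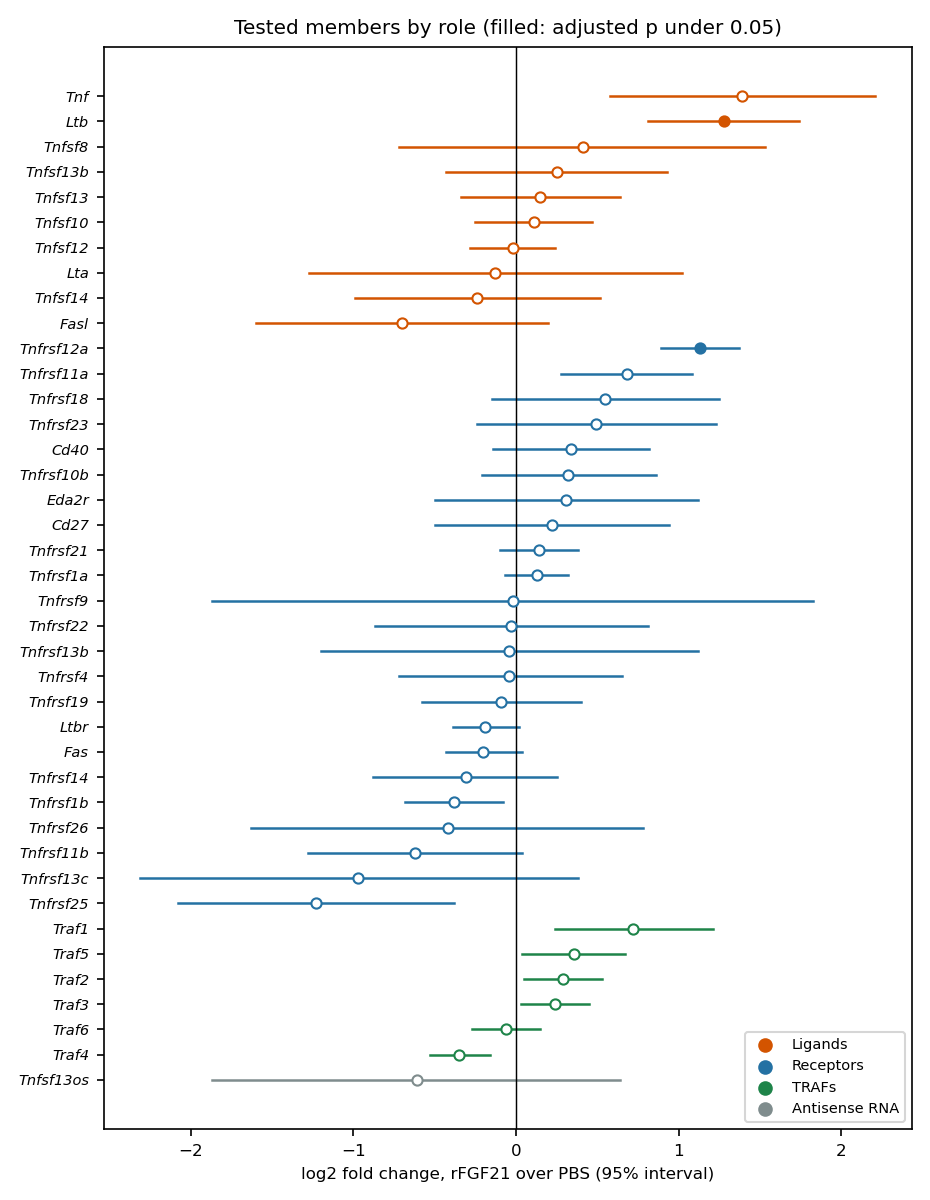
Log2 fold change of rFGF21 over PBS for the 40 tested members, in order of fold change within each role, with 95% intervals from the edgeR fit (4 libraries a group). Filled points, Ltb and Tnfrsf12a, passed an adjusted p of 0.05, and the points on the right of the line are higher in rFGF21 libraries.

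Levels between genes are compared per length, in RPKM. A few receptors made up most of the superfamily's RNA in this liver. Ltbr, the receptor of lymphotoxin-beta and LIGHT, averaged 51.5 RPKM over the 8 libraries and Tnfrsf1a, the main TNF receptor with a death domain, 39.5 RPKM. Tnfrsf12a followed at 22.5 RPKM, Ltb at 19.3 RPKM and Tnfrsf1b, the second TNF receptor, at 16.8 RPKM. These 5 genes made 66.3% of the summed RPKM of all members. Traf4 (16.3 RPKM), Tnfsf12 (12.3 RPKM) and Fas (11.5 RPKM) were the other members above 10 RPKM, 11 more lay between 1 and 10 RPKM, and 29 lay under 1 RPKM. In bulk tissue, fewer cells of a type and less RNA per cell cannot be told apart.

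**Figure D2:**
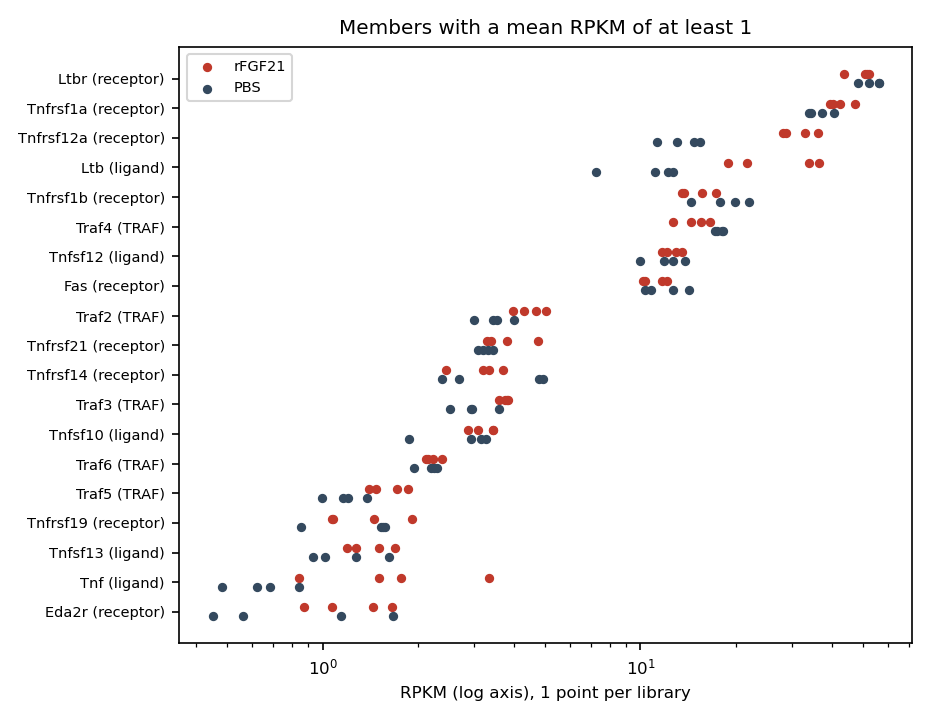
RPKM (log axis) of the 19 members with a mean of at least 1 RPKM, in order of their mean over all libraries; each point is 1 library, with rFGF21 above PBS in each row. Ltbr and Tnfrsf1a are highest in both groups, and the groups stand apart most widely for Tnfrsf12a and Ltb.

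Among the ligands, Ltb encodes the membrane-bound subunit of the lymphotoxin heterotrimer, which signals through Ltbr. Ltb (ENSMUSG00000024399, GRCm38 chromosome 17, 35194439 to 35196305, plus strand) was read at 50.2, 33.1, 28.5 and 50.7 CPM in rFGF21 libraries 1, 2, 3 and 5, against 18.6, 19, 12 and 17.5 CPM in PBS libraries 1, 2, 4 and 5. The groups did not overlap, and rFGF21 libraries 1 and 5 were the highest. It averaged 40.6 ± 11.5 CPM in rFGF21 and 16.8 ± 3.24 CPM in PBS libraries (SD, n = 4 each), a 2.42-fold rise (log2 fold change 1.28 ± 0.21 SE, edgeR adjusted p = 0.0136). The call was lost when rFGF21 library 1 was left out, at a log2 fold change of 1.16 (edgeR adjusted p = 0.0512), while it held without any of the other 7 libraries, among them PBS library 4 (edgeR adjusted p = 0.0246). Known sources of Ltb are T, NK and B cells. Summed T and NK cell markers ran from 17.7 to 23.5 CPM in rFGF21 and 17.9 to 21.6 CPM in PBS libraries. Summed B and plasma cell markers ran from 5.78 to 13.7 CPM in rFGF21 and 7.73 to 13.8 CPM in PBS libraries. The groups overlapped in these sums. Summed dendritic cell markers did not overlap, at 22 to 26.9 CPM in rFGF21 and 17.8 to 21.5 CPM in PBS libraries. The part of any cell type in the difference of Ltb was not tested. The microRNA gene Mir6973a lies within Ltb on the same strand, so its reads could be shared, and the sources used here do not say how such reads were assigned.

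Tnf, the founding cytokine of the family, lies 3.1 kb from Ltb on chromosome 17 (35199381 to 35202007, minus strand), with Lta 1.2 kb further. Tnf was read at 2.82, 1.38, 2.45 and 5.02 CPM in rFGF21 libraries 1, 2, 3 and 5, against 1.02, 1.1, 1.51 and 0.829 CPM in PBS libraries 1, 2, 4 and 5. The groups overlapped through rFGF21 library 2, which lay under PBS library 4, and rFGF21 library 5 was far above the others. Its log2 fold change was 1.39 ± 0.37 SE without passing (edgeR adjusted p = 0.0748). Tnf passed with DESeq2 (adjusted p = 0.00504) and, with edgeR, when rFGF21 library 2, the lowest of its group, was left out (adjusted p = 0.0403). Leaving out any other library gave edgeR adjusted p of 0.0761 to 0.19, with a log2 fold change of 1.00 without rFGF21 library 5. It did not pass with limma on RPKM (adjusted p = 0.104) or with edgeR without a filter on low counts (adjusted p = 0.142). The third gene of the locus, Lta, which encodes soluble lymphotoxin-alpha, had 9 to 29 reads per library and a log2 fold change of -0.13 ± 0.52 SE (edgeR adjusted p = 0.925).

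Because the results turn on Tnfrsf12a and Ltb, and Tnf lies beside Ltb, the 250 bases before the RefSeq start site (GRCm38.p6) are given for Tnfrsf12a (chr17:23677450-23677699, minus strand), Ltb (chr17:35194257-35194506, plus strand) and Tnf (chr17:35202008-35202257, minus strand), 5′ to 3′. Capitals mark a match to the NF-kappaB consensus on either strand.
Tnfrsf12a: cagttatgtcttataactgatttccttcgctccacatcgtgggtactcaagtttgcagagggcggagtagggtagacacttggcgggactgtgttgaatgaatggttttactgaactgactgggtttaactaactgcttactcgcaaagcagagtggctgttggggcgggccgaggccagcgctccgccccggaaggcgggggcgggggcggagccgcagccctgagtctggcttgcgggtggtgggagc
Ltb: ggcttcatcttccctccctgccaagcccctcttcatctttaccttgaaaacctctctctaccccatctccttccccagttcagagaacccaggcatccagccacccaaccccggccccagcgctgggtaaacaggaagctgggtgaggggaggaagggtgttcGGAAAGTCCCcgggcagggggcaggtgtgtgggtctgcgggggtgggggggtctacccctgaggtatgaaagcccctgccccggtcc
Tnf: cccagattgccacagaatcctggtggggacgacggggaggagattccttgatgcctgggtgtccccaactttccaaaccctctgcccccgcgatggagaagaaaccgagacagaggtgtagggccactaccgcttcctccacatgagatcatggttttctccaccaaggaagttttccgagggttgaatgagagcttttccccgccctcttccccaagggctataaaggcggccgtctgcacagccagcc
The NF-kappaB consensus and the AP-1 motif TGANTCA were searched on both strands. Ltb held a match to the NF-kappaB consensus at 87 to 78 bases before the start, printed as GGAAAGTCCC. The match lies on the strand opposite to the printed one. Neither motif was found in the windows of Tnfrsf12a and Tnf. Windows were at hand for 38 members (42 windows). The NF-kappaB consensus was in 4 of these windows, those of Ltb, Traf3, Tnfrsf8 and Tnfrsf9, beside 3.9% of all 32851 windows, and TGANTCA was in 6, beside 6.75%. Of the 8 members with a match to either motif, Ltb was the 1 that passed the edgeR test, and Tnfrsf8 was not tested. Of all tested members 5% passed, and of all genes tested 2.82%. The share passing among all genes with a match was not computed, and a link of the motifs to the differences was not tested.

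The most abundant ligand after Ltb was Tnfsf12 (TWEAK), the ligand of Tnfrsf12a. It was read at 20, 18.5, 19.4 and 16.3 CPM in rFGF21 libraries 1, 2, 3 and 5, against 20.9, 17.7, 20.9 and 15.8 CPM in PBS libraries 1, 2, 4 and 5. The groups overlapped throughout, and its log2 fold change had a 95% interval from -0.28 to 0.24 (edgeR adjusted p = 0.941). Tnfsf12 overlaps the read-through gene Tnfsfm13 on its own strand and Tnfsf13os on the other, so its counts are uncertain. The apoptosis ligand Tnfsf10 (TRAIL) had 16.4 ± 1.32 CPM in rFGF21 and 15.2 ± 3.55 CPM in PBS libraries (SD, n = 4 each), with a 95% interval of the log2 fold change from -0.25 to 0.47. Fasl, the ligand of Fas and a product of cytotoxic lymphocytes, was low, at 0.226 to 0.466 CPM in rFGF21 and 0.308 to 0.723 CPM in PBS libraries (log2 fold change -0.70 ± 0.41 SE, edgeR adjusted p = 0.392). Tnfsf13b (BAFF), a B cell survival factor, and Tnfsf14 (LIGHT), a second ligand of Ltbr, stood under 3 CPM in every library, with log2 fold changes of 0.25 ± 0.31 and -0.24 ± 0.34 SE. The other tested ligands, Tnfsf8 and Tnfsf13, had edgeR adjusted p of 0.726 and 0.778. The 6 ligands that could not be tested (Tnfsf4, Tnfsf9, Tnfsf11, Tnfsf15, Tnfsf18 and Cd40lg) had at most 17 reads in any library. Tnfsf11 (RANKL), the ligand of Tnfrsf11a, had 11, 0, 8 and 0 reads in rFGF21 libraries 1, 2, 3 and 5, against 4, 0, 0 and 16 reads in PBS libraries 1, 2, 4 and 5.

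Summed over the 16 ligands, RPKM ran from 39.4 to 59.0 in rFGF21 and from 26.1 to 33.1 in PBS libraries. Ltb carried this gap: the other 15 ligands summed to 19.4 to 22.5 RPKM in rFGF21 and 15 to 20.9 RPKM in PBS libraries, which overlapped. The receptors summed to 157.3 to 180.3 RPKM in rFGF21 and 143.9 to 161.7 RPKM in PBS libraries, which overlapped, and the TRAFs to 25.4 to 29.4 RPKM in rFGF21 and 26.3 to 29.8 RPKM in PBS libraries.

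Among the receptors, Tnfrsf12a encodes Fn14, a small receptor without a death domain that binds TRAFs and is induced by growth factors and in injured liver. Tnfrsf12a (ENSMUSG00000023905, GRCm38 chromosome 17, 23675445 to 23677468, minus strand) was read at 68.1, 55.6, 53.7 and 58.2 CPM in rFGF21 libraries 1, 2, 3 and 5, against 25.1, 29.3, 23.9 and 29.7 CPM in PBS libraries 1, 2, 4 and 5. Every rFGF21 library stood well above every PBS library, and the spread within each group was small. The means were 58.9 ± 6.4 CPM in rFGF21 and 27 ± 2.95 CPM in PBS libraries (SD, n = 4 each), a 2.18-fold rise (log2 fold change 1.13 ± 0.11 SE, 95% interval 0.89 to 1.37, edgeR adjusted p = 0.00413). By unadjusted p it ranked 3 of 18315 genes. The call held whichever library was left out, with log2 fold changes from 1.05 to 1.18 and edgeR adjusted p up to 0.0144, and without PBS library 4 the adjusted p was 0.00447. The window before its start, printed beside that of Ltb, held neither motif. Markers of cholangiocytes, which bear the receptor in the ductular reaction, summed to 266 to 411 CPM in rFGF21 and 212 to 299 CPM in PBS libraries, and their part in the difference was not tested. No other gene of the table overlaps Tnfrsf12a.

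**Figure D3:**
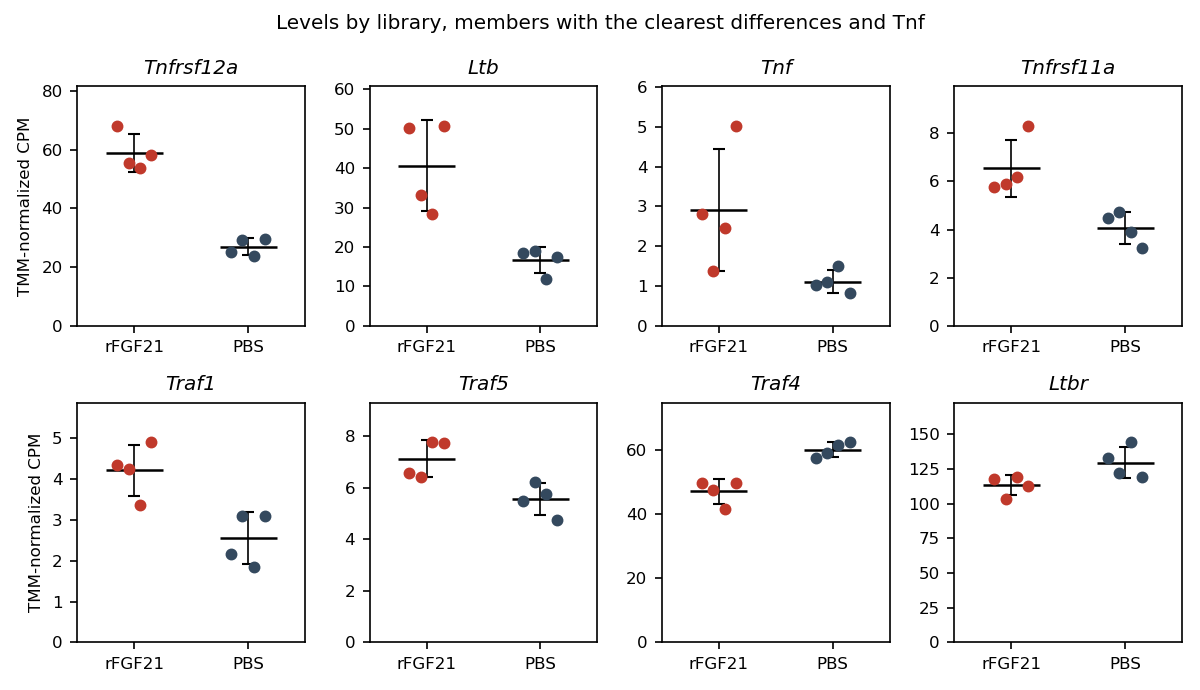
TMM-normalized CPM in each library for 8 members: the 7 whose groups did not overlap, and Tnf. Points are libraries, bars mean ± SD (n = 4 a group), and each axis starts at 0; Tnfrsf12a and Ltb show the widest gaps, while the gap for Ltbr is narrow and Tnf overlaps.

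Of the 5 death-domain receptors, 0 passed by edgeR or limma, 1 (Tnfrsf25) was lower at an unadjusted p under 0.05, and DESeq2 called that 1. That is 20% of the 5, beside 18.8% of all genes at that unadjusted p and 8.35% by DESeq2. Tnfrsf1a was read at 102, 102, 109 and 113 CPM in rFGF21 libraries 1, 2, 3 and 5, against 88.1, 104, 105 and 93 CPM in PBS libraries 1, 2, 4 and 5. The groups overlapped, and the 95% interval of its log2 fold change ran from -0.07 to 0.32. Fas, the receptor of Fasl, averaged 22.2 ± 1.94 CPM in rFGF21 and 25.4 ± 2.81 CPM in PBS libraries (interval -0.43 to 0.04), and Tnfrsf21 (DR6) 15.1 ± 1.98 and 13.8 ± 0.124 CPM in rFGF21 and PBS libraries (interval -0.10 to 0.38). Tnfrsf10b, the mouse TRAIL receptor, stood at 5.15 ± 1.49 CPM in rFGF21 and 4.12 ± 0.768 CPM in PBS libraries (interval -0.21 to 0.86). Tnfrsf25 (DR3), mainly known from T cells, had 0.386, 0.974, 0.424 and 0.489 CPM in rFGF21 libraries 1, 2, 3 and 5, against 1.38, 0.755, 1.54 and 1.67 CPM in PBS libraries 1, 2, 4 and 5. Apart from rFGF21 library 2 and PBS library 2 the groups were separate, and the log2 fold change of -1.23 ± 0.39 SE did not pass (edgeR adjusted p = 0.12, DESeq2 adjusted p = 0.0427). Among the decoys, Tnfrsf11b, which encodes osteoprotegerin and binds RANKL and TRAIL, averaged 1.48 ± 0.0617 CPM in rFGF21 and 2.28 ± 0.918 CPM in PBS libraries (-0.62 ± 0.30 SE, edgeR adjusted p = 0.298). The mouse TRAIL decoys Tnfrsf22 and Tnfrsf23 stood under 2 CPM in all libraries with edgeR adjusted p of 0.979 and 0.467.

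The other 17 receptors act mostly through TRAFs, and 15 of them, Tnfrsf12a included, could be tested. Tnfrsf11a (RANK), which is best known from osteoclasts, had 5.77, 5.91, 6.19 and 8.3 CPM in rFGF21 libraries 1, 2, 3 and 5, against 4.46, 4.72, 3.88 and 3.23 CPM in PBS libraries 1, 2, 4 and 5. The groups did not overlap, but the log2 fold change of 0.68 ± 0.18 SE missed the threshold (edgeR adjusted p = 0.0747, DESeq2 adjusted p = 0.00919). Tnfrsf1b, a TNF receptor of leukocytes and endothelium, had 58, 66.2, 52 and 47.2 CPM in rFGF21 libraries 1, 2, 3 and 5, against 68.2, 74.9, 59.9 and 87.4 CPM in PBS libraries 1, 2, 4 and 5. The groups overlapped, at a log2 fold change of -0.38 ± 0.14 SE (edgeR adjusted p = 0.162). Ltbr, the receptor for the product of Ltb, stood at 118, 103, 119 and 113 CPM in rFGF21 libraries 1, 2, 3 and 5, against 133, 122, 144 and 119 CPM in PBS libraries 1, 2, 4 and 5. Its groups were separate by less than the rounding of these values, and the difference of -0.19 ± 0.09 SE on the log2 scale did not pass (edgeR adjusted p = 0.309). Cd40, the activating receptor of B cells and macrophages, averaged 3.7 ± 0.897 CPM in rFGF21 and 2.93 ± 0.45 CPM in PBS libraries (0.34 ± 0.22 SE, edgeR adjusted p = 0.443). Tnfrsf14 (HVEM), another LIGHT receptor, averaged 4.41 ± 0.616 CPM in rFGF21 and 5.49 ± 2.06 CPM in PBS libraries (-0.31 ± 0.26 SE). Tnfrsf18 (GITR), a receptor of regulatory T cells, averaged 1.76 ± 0.295 CPM in rFGF21 and 1.2 ± 0.523 CPM in PBS libraries (0.55 ± 0.32 SE, edgeR adjusted p = 0.384). Eda2r, chosen here after its values were seen, spread widely, from 5.12 to 8.91 CPM in rFGF21 and from 2.78 to 9.7 CPM in PBS libraries (edgeR adjusted p = 0.708). The remaining tested receptors were Tnfrsf4, Tnfrsf9, Tnfrsf13b, Tnfrsf13c, Tnfrsf19, Tnfrsf26 and Cd27, several of them known from lymphocytes. Their edgeR adjusted p ran from 0.433 (Tnfrsf13c) to 0.994 (Tnfrsf9). The antisense RNA Tnfsf13os had 7 to 23 reads per library and did not pass either (edgeR adjusted p = 0.615). The receptors Tnfrsf8 and Tnfrsf17 could not be tested, with at most 19 reads in any library.

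The TRAF adaptors link these receptors to ubiquitin signalling, NF-kappaB and MAP kinases. By edgeR 0 of the 6 passed, although 4 were higher and 1 lower at an unadjusted p under 0.05, beside 8.92% of all genes higher and 9.86% lower. DESeq2 called Traf1 and Traf4, and limma on RPKM 0. Traf1, itself a known NF-kappaB target, had 4.34, 4.26, 3.38 and 4.9 CPM in rFGF21 libraries 1, 2, 3 and 5, against 2.16, 3.1, 1.86 and 3.1 CPM in PBS libraries 1, 2, 4 and 5. All rFGF21 libraries were higher, with a log2 fold change of 0.72 ± 0.22 SE (edgeR adjusted p = 0.11, DESeq2 adjusted p = 0.0275). Traf4, a TRAF first described in breast carcinoma cells and the most abundant of the 6 here, had 49.9, 47.7, 41.6 and 49.7 CPM in rFGF21 libraries 1, 2, 3 and 5, against 57.5, 59.2, 61.6 and 62.4 CPM in PBS libraries 1, 2, 4 and 5. All rFGF21 libraries were lower, with a log2 fold change of -0.35 ± 0.08 SE that narrowly missed the threshold (edgeR adjusted p = 0.0546, DESeq2 adjusted p = 0.0129). That near miss moved with the scaling. The log2 fold change was -0.26 with total-count scaling (edgeR adjusted p = 0.159), -0.27 with limma on RPKM (adjusted p = 0.155) and -0.18 with limma on TPM (adjusted p = 0.307). Traf2, which carries TNF receptor signals to cIAP ligases, averaged 22.4 ± 2.5 CPM in rFGF21 and 18.3 ± 1.57 CPM in PBS libraries (0.29 ± 0.11 SE, edgeR adjusted p = 0.18). Traf3, which restrains the non-canonical NF-kappaB pathway, averaged 26.7 ± 0.861 CPM in rFGF21 and 22.6 ± 2.48 CPM in PBS libraries (0.24 ± 0.10 SE, edgeR adjusted p = 0.203). Traf5 averaged 7.12 ± 0.715 CPM in rFGF21 and 5.55 ± 0.61 CPM in PBS libraries (0.36 ± 0.14 SE, edgeR adjusted p = 0.207). Traf6, which serves Toll-like and interleukin-1 receptors as well, stood at 16.9 ± 0.169 CPM in rFGF21 and 17.6 ± 1.66 CPM in PBS libraries, with a log2 interval from -0.27 to 0.15.

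Genes on either side of the receptors were read from further lists. Of 37 signalling adaptors, kinases and NF-kappaB subunits, all tested, 3 rose and 0 fell (0 lower also at an unadjusted p under 0.05, by DESeq2 and by limma), with a median log2 fold change of 0.09, where 1.15% of all genes rose and 1.67% fell. The JNK pathway kinase gene Map3k1 rose by 0.91 ± 0.13 SE on the log2 scale, to 62.5 ± 9.56 CPM in rFGF21 libraries, against 33.3 ± 4.91 CPM in PBS libraries (SD, n = 4 each, edgeR adjusted p = 0.00898). Nfkb2, the precursor of the non-canonical NF-kappaB subunit p52, rose by 0.60 ± 0.11 SE to 51.6 ± 2.57 CPM in rFGF21 libraries, against 34 ± 4.69 CPM in PBS libraries (edgeR adjusted p = 0.0178). Birc2, which encodes the ubiquitin ligase cIAP1 bound by Traf2, rose by 0.59 ± 0.13 SE to 69.2 ± 3.62 CPM in rFGF21 libraries, against 45.9 ± 9.19 CPM in PBS libraries (edgeR adjusted p = 0.0457). Nfkb1 (0.42 ± 0.10 SE, edgeR adjusted p = 0.0505), which encodes the p50 subunit, narrowly missed the threshold. Tradd, Fadd, Ripk1, Casp8 and Cflar, which act next to death-domain receptors, did not pass and fall outside the naming rule given below. Their edgeR log2 fold changes were 0.04 for Tradd, -0.25 for Fadd, 0.13 for Ripk1, -0.04 for Casp8 and -0.07 for Cflar.

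Of 22 inhibitors of the pathway and genes of ligand and receptor shedding, 2 rose and 1 fell, beside 1.15% and 1.67% of all genes, with a median log2 fold change of 0.32. Nfkbie, which encodes an inhibitor that holds NF-kappaB in the cytosol, rose by 0.88 ± 0.13 SE to 28.5 ± 2.87 CPM in rFGF21 libraries, against 15.5 ± 2.47 CPM in PBS libraries (edgeR adjusted p = 0.00898). Rhbdf1, a rhomboid-like partner of the TNF-shedding protease Adam17, rose by 0.61 ± 0.12 SE (edgeR adjusted p = 0.025). Usp2, a deubiquitinase that is also known as a clock-regulated gene, fell by 1.36 ± 0.28 SE on the log2 scale, to 19.9 ± 7.32 CPM in rFGF21 libraries, against 50.9 ± 15 CPM in PBS libraries (edgeR adjusted p = 0.0313). Adam10, another sheddase, did not pass (0.34 ± 0.08 SE, edgeR adjusted p = 0.0546).

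Of 27 tested genes known to be induced by TNF, 8 rose and 0 fell, beside 1.15% and 1.67% of all genes, and the median log2 fold change was 0.70. At an unadjusted p under 0.05, 18 were higher and 1, Sod2, lower, beside 8.92% and 9.86% of all genes, while DESeq2 and limma called 0 lower. Tnfaip2 rose by 1.03 ± 0.14 SE to 57.8 ± 8.99 CPM in rFGF21 libraries, against 28.2 ± 4.86 CPM in PBS libraries (edgeR adjusted p = 0.00652). The adhesion molecule Icam1 rose by 0.68 ± 0.09 SE, the macrophage growth factor Csf1 by 0.71 ± 0.10 SE and the monocyte chemokine Ccl2 by 1.46 ± 0.23 SE (edgeR adjusted p of 0.00688, 0.00764 and 0.0106 in that order). The neutrophil chemokine Cxcl1 rose most in fold, by 1.92 ± 0.35 SE, to 44.5 ± 8.94 CPM in rFGF21 libraries, against 11.8 ± 7.62 CPM in PBS libraries (edgeR adjusted p = 0.0202). The interferon-response factor Irf1 (0.70 ± 0.12 SE), the early response gene Ier3 (1.10 ± 0.24 SE) and, again, Nfkb2 rose as well. Most of these genes respond to other stimuli as well, and some were known from earlier results on these libraries. Among genes of the superfamily whose symbols fall outside the rule (Eda, Edar, Edaradd, Ngfr, Relt, Rell1 and Rell2), 0 of 7 passed by edgeR, DESeq2 or limma, and 1, Rell1, was higher at an unadjusted p under 0.05 (0.23 ± 0.09 SE).

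**Figure D4:**
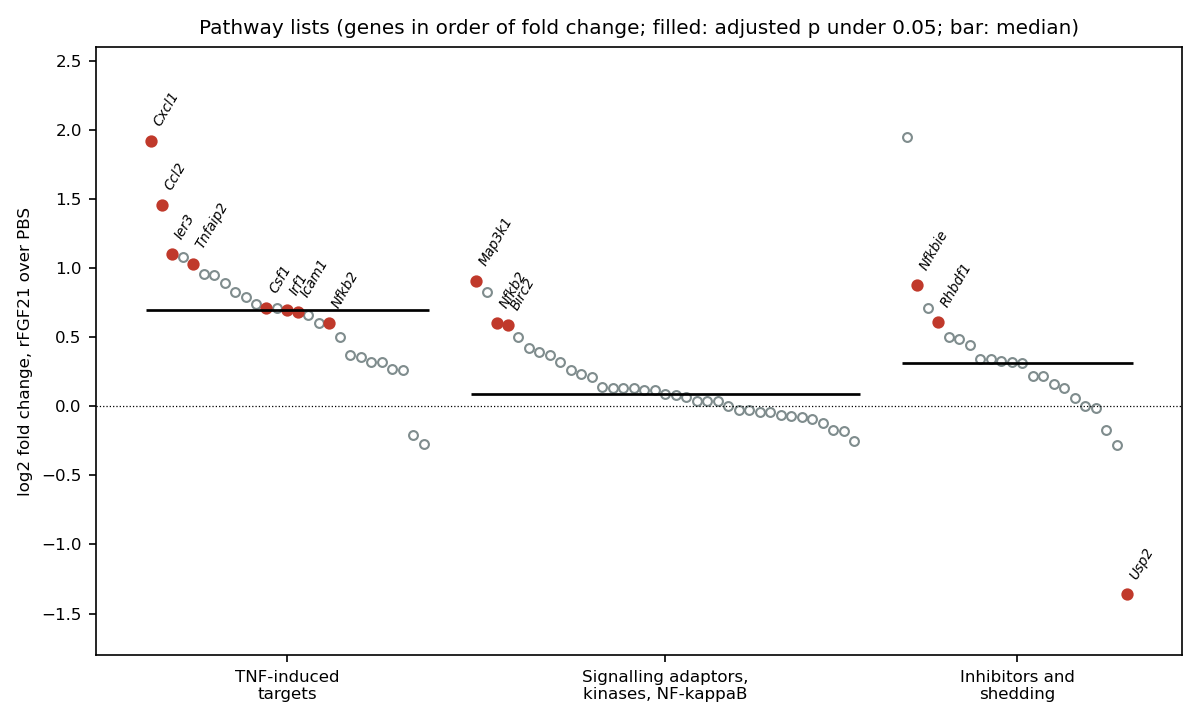
Log2 fold changes of rFGF21 over PBS for the tested genes of 3 lists, in order of fold change within each list; filled points passed an edgeR adjusted p of 0.05 and bars mark the list medians (0.70, 0.09 and 0.32). Calls in all 3 lists are higher in rFGF21 except Usp2.

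The calls of Map3k1, Nfkbie, Tnfaip2, Icam1, Csf1 and Ccl2 held whichever library was left out. Nfkb2 lost its call without rFGF21 library 1 (edgeR adjusted p = 0.0654), and Irf1 without rFGF21 library 1 (0.0581) or 5 (0.0534). Birc2 kept its call only without PBS library 4 or 5, Usp2 only without rFGF21 library 3 or PBS library 2, and Ier3 only without PBS library 1. Rhbdf1 lost its call without rFGF21 library 1, 3 or 5 or PBS library 5, and Cxcl1 without rFGF21 library 1, 3 or 5 or PBS library 1 or 5.

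Markers of the cell types that could carry these transcripts were read in the same libraries, and of 96 tested markers 0 passed by edgeR (15 higher and 2 lower at an unadjusted p under 0.05, 7 higher by DESeq2 and 1 higher by limma). Of all genes, 8.92% were higher and 9.86% lower at that p, 4% higher by DESeq2 and 1.04% higher by limma. The 14 T and NK cell markers had a median log2 fold change of 0.13. Of these, 1 was higher at an unadjusted p under 0.05, 1 was called higher by DESeq2 and 1 had separate groups. The 7 tested B and plasma cell markers had a median of -0.11, with 0 at that p and by DESeq2. The 12 macrophage markers summed to 807 to 1230 CPM in rFGF21 and 936 to 1390 CPM in PBS libraries, and had a median of -0.25, with 1 of 12 lower at an unadjusted p under 0.05. The 10 neutrophil markers had 15.8 to 34 CPM in rFGF21 and 13.7 to 21.6 CPM in PBS libraries. The 9 of them that could be tested had a median of 0.69, with 2 higher at that p. The groups of libraries overlapped in these sums. The sums of endothelial, hepatocyte and mitotic markers also overlapped, and these markers had medians of -0.08, -0.09 and -0.13. The summed CPM of the 8 dendritic cell markers did not overlap, at 22 to 26.9 CPM in rFGF21 and 17.8 to 21.5 CPM in PBS libraries. Taken singly, 0 of these 8 markers had separate groups, and 1 of 8 was higher at an unadjusted p under 0.05. Of the 8 cholangiocyte markers, 5 were higher at an unadjusted p under 0.05, with a median of 0.56. DESeq2 called 2 of these 8 higher and limma 0, and 0 had separate groups. The 10 stellate cell and fibroblast markers summed to 963 to 1480 CPM in rFGF21 and 752 to 1050 CPM in PBS libraries. Of these 10, 5 were higher at that p, with a median of 0.36. DESeq2 called 3 of the 10 higher and limma 1, and 3 had separate groups. The part of these cells in the differences of Ltb and the TNF-induced genes was not tested.

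Many members have neighbours of the same family, and 22 of the 48 lay in 9 groups of neighbours within 200 kb. On chromosome 6 (125232622 to 125361874), Cd27, Ltbr and Tnfrsf1a had log2 fold changes of 0.22, -0.19 and 0.13, and on chromosome 7 (143607659 to 143685872), Tnfrsf26, Tnfrsf22 and Tnfrsf23 had -0.42, -0.03 and 0.49. None of these 6 passed the edgeR test, none had an unadjusted p under 0.05, and none was called by DESeq2 or limma. At the locus on chromosome 17 (35194439 to 35205351), Ltb, Tnf and Lta had 1.28, 1.39 and -0.13.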

How the data were processed

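RNA sequencing of 8 liver libraries was analysed from 1 deposited table. The authors' deposited columns hold whole-number read counts per gene, per the file headers. The 4 count columns per group that have an FPKM column beside them were assigned to groups by name; the other 2 count columns and the 8 FPKM columns (10 in all) were not used. Bowtie 0.12.2 and mm8 are named in the submitters' processing notes. The sources used here do not give the counter or its strand setting. Of 30266 gene identifiers, 30177 were in GENCODE M21 (GRCm38), 27285 with identical coordinates (41 of the 48 members), and coordinates are the table's own, read as GRCm38.

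Counts were tested with edgeR 4.0.16 in R 4.3.3 (filterByExpr, TMM, glmQLFit and glmQLFTest, two-sided, no covariates), with Benjamini-Hochberg adjustment over all 18315 genes tested, and the step was tested on simulated data. Log2 fold changes are rFGF21 over PBS, with SE from the F statistic and 95% intervals. CPM are TMM-normalized. RPKM were computed from the counts, total counts and GENCODE M21 exonic lengths, in place of the FPKM the design had named. Totals of 62756328 to 73313449 reads limit precision mainly for genes with few reads, and a count of 0 allows 3 reads (counting error only). Alternatives were DESeq2 1.42.0, limma 3.58.1 on log2(RPKM + 0.1), other filters and scalings, each library left out, and the column number as a block. The named members were those past the threshold, the 15 with the smallest p, the 10 with the highest RPKM and a fixed set of ligands, receptors and TRAFs; in pathway lists, called genes and up to 4 with the smallest p. Members and lists were chosen with earlier results of these data known. Promoter sequences are from RefSeq (GRCm38.p6).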

Additional observations from a re-analysis of the deposited data

Results flagged for a closer look

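Within the named members, 53 groups of 4 libraries were examined for a library that lies far from the other 3, and 1 was found, where chance gives about 1 in 20 such groups. It was Tnfrsf11a in the rFGF21 group: library 5 stood at 8.3 CPM and the other 3 rFGF21 libraries between 5.77 and 6.19 CPM, a gap of 0.833 of the group's range, where the 95% limit for 4 libraries is 0.829. The same library was also the highest of its group for Tnf (5.02 CPM), Ltb (50.7 CPM, beside 50.2 CPM in library 1) and Traf1 (4.9 CPM). For Tnfrsf12a it was not the highest (58.2 CPM, against 68.1 CPM in library 1), and for Tnfsf12, Tnfrsf1b, Traf2 and Traf3 it was the lowest of its group.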

How the results depend on the processing

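The pair of called members, Tnfrsf12a and Ltb, was also called with median-of-ratios normalization, total-count scaling, no filter on low counts, a mean CPM of at least 1, and limma on RPKM (either pseudocount, or a mean RPKM of at least 1) and on TPM. Fits on the deposited FPKM, listed at the outset, were not run; fits on RPKM and TPM made from the counts took their place and were chosen after seeing the data. DESeq2 called 7 members, adding Tnf, Tnfrsf11a, Tnfrsf25, Traf1 and Traf4, and gave no adjusted p for 11 members. These were the 8 that edgeR did not test, and Tnfsf13os, Lta and Tnfrsf9, which had 0 to 29 reads per library. The cause was not tested. Leaving out 1 library in turn gave 1 to 3 members, 131 to 486 genes in all and 6 to 13 genes of the pathway lists, where all 8 libraries gave 2, 516 and 13. With rFGF21 library 1 left out, the lowest counts were found (1, 131 and 6). Over all genes, edgeR called 210 higher and 306 lower. The count was 198 without a filter on low counts, 1410 with DESeq2, 348 and 308 with limma on RPKM at pseudocounts of 0.1 and 1, and the pathway lists had 8 calls without that filter and 26 with DESeq2. The split by direction moved with scaling, to 257 higher and 178 lower with total-count scaling, 191 and 157 with limma on RPKM, 171 and 137 at a pseudocount of 1, 226 and 153 at a mean RPKM of at least 1, and 270 and 94 on TPM, where the median of all genes shifted by 0.17; the 12 genes of the block fit split 7 higher and 5 lower. The small negative log2 fold changes of Tnfsf12 and Traf6 turned positive with total-count scaling (0.06 and 0.03), limma on RPKM (0.07 and 0.03, with a pseudocount of 1 at 0.06 and 0.02, with a mean RPKM of at least 1 at 0.07 and 0.03) and TPM (0.15 and 0.12). With 1 library left out, Tnfsf12 ran from -0.09 to 0.04, Tnfsf10 from -0.03 to 0.23 and Rell2 from -0.07 to 0.69.

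Column numbers 1, 2 and 5 occur in both groups, and the labels do not say whether they pair the libraries. Same-numbered deviations from the group means correlated at 0.065, -0.036 and -0.099, and rFGF21 library 2 correlated best with PBS library 5 (0.119). With so few libraries, these correlations cannot decide whether the numbers are pairs. With the column numbers as a replicate block on 6 libraries, edgeR called 0 members, 12 genes in all and 1 gene of the pathway lists. The adjusted p was 0.0785 for Tnfrsf12a and 0.0788 for Ltb, at log2 fold changes of 1.11 and 1.26. Tnfsf12 and Tnfrsf14 had 0.01 and 0.04 there.

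Depth limits the low members: 8 of 48 had too few reads for a test, and the 95% intervals of the log2 fold change were wide for the lowest tested members (Lta -1.27 to 1.02).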
